A study of Mus musculus with 4 samples.

Results

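The genes described here are 10 regulators of the entry into the cell division cycle: the D-type cyclins Ccnd1, Ccnd2 and Ccnd3, their kinases Cdk4 and Cdk6, the kinase inhibitors Cdkn1a, Cdkn1b and Cdkn1c, and the antiproliferative genes Btg1 and Btg2. They were taken by symbol from the authors' table, which lists 14519 genes, and all 10 were in it and passed the filter on low values (at least 2 libraries with 5 RPM or more, RPM being reads scaled to the total of the library). The RNA came from mouse colonic epithelium, from sorted Reg4+ DCS cells, the deep crypt secretory cells marked by a Reg4-dsRed reporter, and from sorted Lgr5+ cells, marked by an Lgr5-GFP reporter. There were 4 libraries, Reg4+ DCS replicates 1 and 2 and Lgr5+ replicates 1 and 2, made by CEL-seq, which counts tags near the 3′ ends of transcripts. The labels give no age, strain or treatment of the mice, and how many animals were used per library is not given in the sources at hand. The reporters follow the expression of Reg4 and Lgr5, so each population is what its reporter marks.

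A resting cell enters the division cycle when a D-type cyclin binds Cdk4 or Cdk6 and the pair phosphorylates the retinoblastoma protein, which then lets go of E2F transcription factors and so permits the genes of DNA synthesis to be transcribed. Inhibitors of the Cip/Kip family, encoded by Cdkn1a (p21), Cdkn1b (p27) and Cdkn1c (p57), block cyclin and kinase pairs, and BTG proteins slow division, in part by recruiting the CCR4-NOT complex that shortens the tails of messenger RNAs. In the colon, Lgr5+ stem cells at the crypt base divide through life, whereas mature secretory cells as a rule do not.

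The libraries held 7414264 and 5448260 recovered reads in Reg4+ DCS cells and 5205723 and 7955340 in Lgr5+ cells. The sort markers followed the labels, with Reg4 at 6187 and 5899 RPM in Reg4+ DCS cells, against 796 and 363 RPM in Lgr5+ cells, and Lgr5 at 0.989 and 3.13 RPM in Reg4+ DCS cells, against 46.5 and 48.8 RPM in Lgr5+ cells. Goblet markers also followed them (135111 to 206645 summed RPM in Reg4+ DCS cells, 2194 to 6001 in Lgr5+ cells). Of 10183 genes tested with limma, 34.1% were called (adjusted p under 0.05, Benjamini-Hochberg), 7.18% higher and 26.9% lower in Reg4+ DCS cells. A change between the populations written as a fold is a ratio of mean RPM. It can differ from the log2 fold change, which is what limma tested. Log2 fold changes are given as Reg4+ DCS minus Lgr5+ of log2(RPM + 1), a scale that understates the change of low genes. Their median over the tested genes was −0.47. With median-of-ratios scaling, which removes most of that common shift, the median was 0.03 and 28.3% were called, 16.0% higher and 12.3% lower. RNA of sorted cells was pooled, so fewer cells expressing a gene and less RNA of it per cell cannot be told apart.

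Reg4+ DCS cells had less Cdk4, Ccnd1, Cdkn1b and Cdkn1c and more Btg2 than Lgr5+ cells. On the deposited scale 5 of the 10 genes were called, 1 higher and 4 lower, against a background of 34.1% of all tested genes. In all 10 genes the libraries of both populations did not overlap, as was the case for 72.3% of tested genes. Of the 5 calls, those of Btg2, Cdk4 and Cdkn1c were also made under median-of-ratios scaling, while Ccnd1 and Cdkn1b were no longer called, and Ccnd2, Ccnd3, Cdkn1a and Btg1 were then called higher (5 higher and 2 lower of 10). Without 1 library the log2 fold change ran from −2.21 to −1.86 for Cdk4, −1.38 to −0.81 for Ccnd1 and −1.01 to −0.68 for Cdkn1b. It ran from −4.10 to −1.94 for Cdkn1c and from 1.45 to 1.73 for Btg2. Some calls were lost without 1 library, as they were over all tested genes. The median log2 fold change of the 10 genes was −0.01, beside −0.47 over all tested genes.

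**Figure D1:**
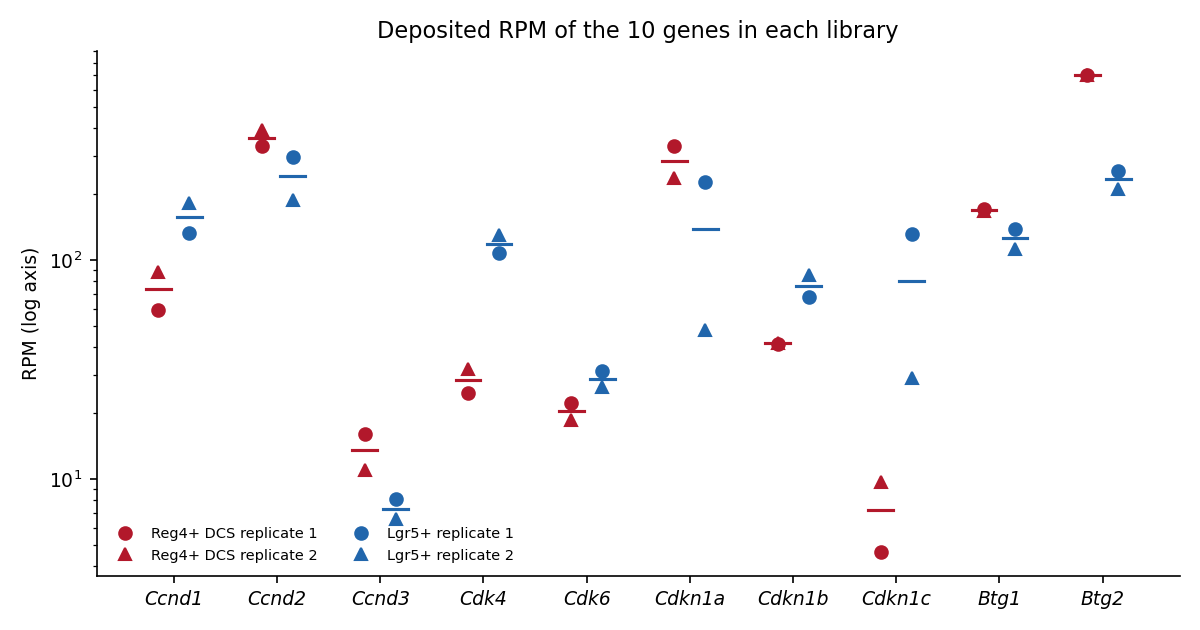
RPM (log axis) of the 10 genes in the Reg4+ DCS (red, left of each pair) and Lgr5+ libraries (blue, right). Circles are replicate 1, triangles replicate 2 and bars the mean of 2 libraries. Btg2 lies at 700 and 705 RPM in Reg4+ DCS cells and at 257 and 211 RPM in Lgr5+ cells, and the widest gaps between replicates are those of Cdkn1a and Cdkn1c in Lgr5+ cells.

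Of the D-type cyclins, Ccnd1 was lower in Reg4+ DCS cells. Ccnd1 (chromosome 7, 144929931 to 144939925, minus strand, in the GRCm38 assembly, which is mm10), the D-type cyclin of many epithelia and a known Wnt target, stood at 59.1 and 88.3 RPM in Reg4+ DCS cells, against 132.9 and 183 RPM in Lgr5+ cells. Both Reg4+ DCS values lay under both Lgr5+ values. The means were 73.7 ± 20.6 RPM in Reg4+ DCS cells against 158 ± 35.4 RPM in Lgr5+ cells (SD, n = 2 per group, as for every mean here), 2.14-fold lower in Reg4+ DCS cells (log2 fold change −1.10, SE 0.28, limma adjusted p = 0.0202). That call was not made with median-of-ratios scaling (−0.59, adjusted p = 0.118), without Reg4+ DCS replicate 1 (adjusted p = 0.129) or without Lgr5+ replicate 2 (adjusted p = 0.0632).

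Ccnd2 was not called on the deposited scale. Ccnd2 (chromosome 6, 127125162 to 127152193, minus strand), which like Ccnd1 activates Cdk4 and Cdk6, stood at 332 and 393 RPM in Reg4+ DCS cells, against 297 and 189 RPM in Lgr5+ cells. The lower Reg4+ DCS library and the higher Lgr5+ library lay closer to each other than the 2 Lgr5+ libraries did. The fold was 1.49 (log2 fold change 0.61, SE 0.27), which limma did not call (adjusted p = 0.115). Ccnd2 was called higher once scaled by median of ratios (log2 fold change 1.12, adjusted p = 0.0125) and without Lgr5+ replicate 1 (0.93, adjusted p = 0.0299).

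The Reg4+ DCS columns have the form of means of 2 separately scaled parts, and Ccnd2 differed between the parts of replicate 1. It stood at 509 RPM (2814 reads) in the first part and 155 RPM (293 reads) in the second, 3.29-fold apart, a gap that 2.55% of tested genes reached. The same gene stood at 419 and 367 RPM in the parts of replicate 2. What the parts are is not given in the sources at hand. Neither Lgr5+ column has this form, so the form of the columns cannot be told apart from the population. Averaging 2 parts may narrow the spread of the Reg4+ DCS libraries that enters the p-values, which was not tested. Ccnd3 was the other D-type cyclin with a wide gap between parts, 2.15-fold in replicate 2, on only 45 and 17 reads. There 3.67% of tested genes, of any depth, had a gap as wide.

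Ccnd3 (chromosome 17, 47505051 to 47599691, plus strand), the third D-type cyclin, was the lowest of the family. It stood at 16.1 and 10.97 RPM in Reg4+ DCS cells, against 8.07 and 6.54 RPM in Lgr5+ cells, on 137, 62, 42 and 52 reads in that order of libraries. The fold of 1.85 (log2 fold change 0.79, SE 0.33) missed the threshold (adjusted p = 0.0951) and passed it under median-of-ratios scaling (1.25, adjusted p = 0.0252). Bysl, on the opposite strand, overlaps the 3′ end of Ccnd3 and had 23.5 and 22.1 RPM in Reg4+ DCS cells, against 18.1 and 22.6 RPM in Lgr5+ cells. Oraov1 (LTO1 in the annotation) overlaps the 3′ end of Ccnd1 in the same manner, at 10.4 to 21.9 RPM over the libraries. Gm43126, an antisense gene not found in the authors' table, overlaps the 3′ end of Ccnd2. Whether reads were counted by strand is not given in the sources at hand.

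Within a library, the D-type cyclins were also compared as shares of their sum. Their summed RPM was 407 and 492 in Reg4+ DCS cells and 438 and 378 in Lgr5+ cells, which overlap. Ccnd1 made up 14.5% and 17.9% of that sum in Reg4+ DCS cells and 30.3% and 48.4% in Lgr5+ cells. For Ccnd2 the shares were 81.5% and 79.8% in Reg4+ DCS cells and 67.8% and 49.9% in Lgr5+ cells. Such shares do not move with the scaling between libraries. In the parts of the Reg4+ DCS columns the Ccnd2 share ran from 73.1% to 84.5%, above the share in either Lgr5+ library. No test was run on these shares. A 3′ tag value does not scale with gene length, so levels of different genes were compared as RPM, though capture can still differ between genes.

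**Figure D2:**
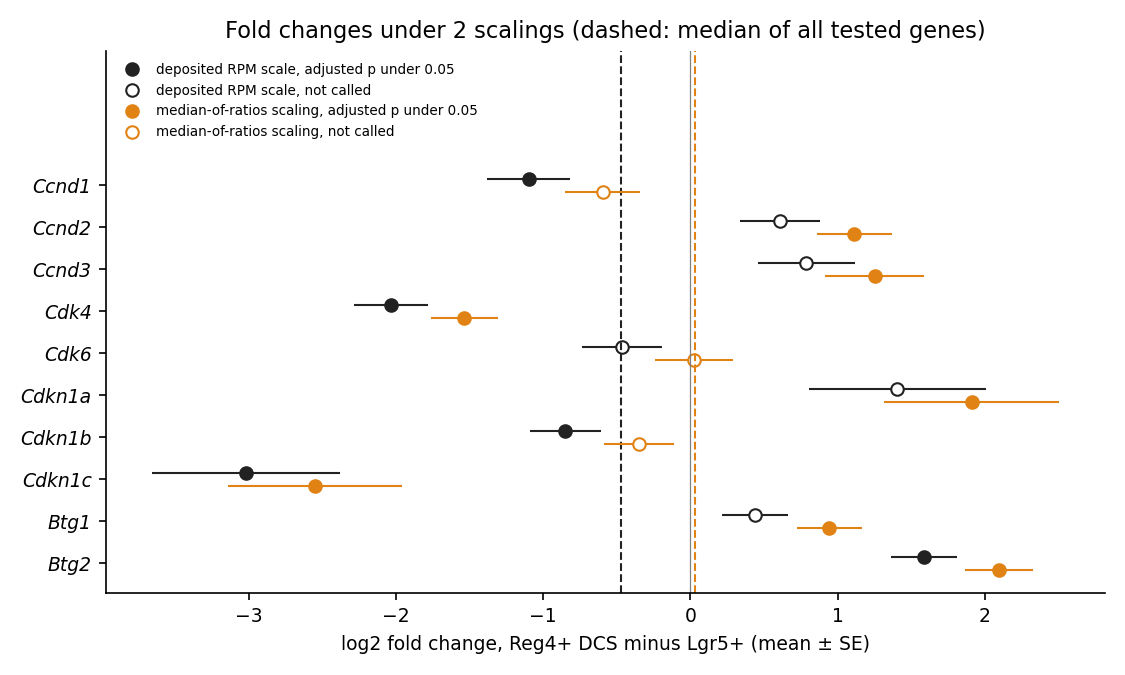
Log2 fold change (Reg4+ DCS minus Lgr5+, mean ± SE) of the 10 genes on the deposited RPM scale (black) and after median-of-ratios scaling (orange). Filled points have an adjusted p under 0.05, and dashed lines mark the medians of all tested genes, −0.47 and 0.03. Btg2, Cdk4 and Cdkn1c are filled in both.

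Of the kinases, Cdk4 fell and Cdk6 was not called. Cdk4 (chromosome 10, 127063534 to 127067920, plus strand), the partner of D-type cyclins in most proliferating cells, stood at 24.8 and 31.8 RPM in Reg4+ DCS cells, against 107 and 130 RPM in Lgr5+ cells. The gap between the populations was far wider than that within either. Mean values of 28.3 ± 4.96 RPM in Reg4+ DCS cells against 119 ± 15.98 RPM in Lgr5+ cells were 4.19-fold apart (3.73 to 4.79 without 1 library), with a log2 fold change of −2.03 (SE 0.25, limma adjusted p = 0.00103). Cdk4 was lower under each alternative run, with log2 fold changes from −2.21 without Reg4+ DCS replicate 2 to −1.53 under median-of-ratios scaling (limma adjusted p = 0.002 under that scaling).

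Cdk6 (chromosome 5, 3341485 to 3531008, plus strand), the second kinase of D-type cyclins, stood at 22.3 and 18.7 RPM in Reg4+ DCS cells, against 31.1 and 26.3 RPM in Lgr5+ cells. Its log2 fold change of −0.47 (SE 0.27, adjusted p = 0.209) was as large as the median of all tested genes, and under median-of-ratios scaling it was 0.024 (adjusted p = 0.956). Cdk4 over Cdk6 was 1.11 and 1.70 in Reg4+ DCS cells and 3.45 and 4.95 in Lgr5+ cells, so that the ratio did not overlap. Their summed RPM was 47.1 and 50.5 in Reg4+ DCS cells and 138.5 and 156 in Lgr5+ cells. Tspan31, which lies on the opposite strand over the 3′ end of Cdk4, stood at 77.1 and 80.8 RPM in Reg4+ DCS cells, against 77.2 and 98.0 RPM in Lgr5+ cells, and thus did not show the gap of Cdk4.

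The promoter of Cdk4 is shown because Cdk4 was lower under each alternative run. The motif looked for was CACGTG, which MYC is known to bind. A part of MYC in the lower level of Cdk4 was not tested. The window covers 250 bases before to 50 bases after the annotated start (RefSeq, GRCm38.p6, chr10:127063285-127063584, plus strand). Capitals mark CACGTG, which reads the same on both strands.
Cdk4 promoter: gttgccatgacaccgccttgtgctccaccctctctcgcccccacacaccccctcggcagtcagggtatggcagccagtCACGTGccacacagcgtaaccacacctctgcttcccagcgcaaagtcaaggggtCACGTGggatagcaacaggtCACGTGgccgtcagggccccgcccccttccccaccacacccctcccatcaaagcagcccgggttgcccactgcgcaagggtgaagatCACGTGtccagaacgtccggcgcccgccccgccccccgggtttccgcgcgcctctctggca
There were 4 matches, which begin 172, 118, 98 and 11 bases before the start. Of 32851 promoter windows of this length, 7.15% held at least 1 CACGTG and 8 windows (0.0244%) held at least 4. Among the 9 windows found for 7 of the 10 genes, Cdk6 had 1 match and the other genes had 0. A match describes letters only, and binding was not measured.

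Of the Cip/Kip inhibitors, Cdkn1c and Cdkn1b were lower in Reg4+ DCS cells and Cdkn1a was not called. Cdkn1c (chromosome 7, 143458339 to 143461050, minus strand), which encodes p57, an inhibitor linked to the exit from the cycle and to quiescent stem cells in other tissues, stood at 4.65 and 9.74 RPM in Reg4+ DCS cells, against 132 and 28.9 RPM in Lgr5+ cells. All Lgr5+ values were higher, and Lgr5+ replicate 1 was 4.58-fold above replicate 2. The means were 7.19 ± 3.60 RPM in Reg4+ DCS cells against 80.6 ± 73.1 RPM in Lgr5+ cells, and the difference, 11.2-fold lower in Reg4+ DCS cells, was 4.02-fold without Lgr5+ replicate 1 and 18.4-fold without Lgr5+ replicate 2. The log2 fold change was −3.02 (SE 0.64, limma adjusted p = 0.00971), and leaving out Reg4+ DCS replicate 1 ended the call (−2.56, adjusted p = 0.09).

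Cdkn1b (chromosome 6, 134920401 to 134925513, plus strand) encodes p27, an inhibitor that is controlled to a large part by protein decay. It was lower in Reg4+ DCS cells, at 41.5 and 41.9 RPM, against 67.6 and 85.2 RPM in Lgr5+ cells. The fold was 1.83 (log2 fold change −0.85, SE 0.24, limma adjusted p = 0.0292). This call was not made under median-of-ratios scaling (−0.35, adjusted p = 0.314), without Reg4+ DCS replicate 1 (adjusted p = 0.107), without Reg4+ DCS replicate 2 (0.0771) or without Lgr5+ replicate 2 (0.163).

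Cdkn1a (chromosome 17, 29090976 to 29100727, plus strand) encodes p21, the inhibitor induced by p53 and in differentiating gut epithelium. It stood at 332 and 237 RPM in Reg4+ DCS cells, against 228 and 48.1 RPM in Lgr5+ cells. Lgr5+ replicate 1 thus lay close to the lower Reg4+ DCS library and 4.74-fold above Lgr5+ replicate 2. The mean values, 284 ± 67.0 RPM in Reg4+ DCS cells against 138 ± 127 RPM in Lgr5+ cells, were 2.06-fold apart, which limma did not call (log2 fold change 1.41, SE 0.60, adjusted p = 0.102). The value depended on both Lgr5+ libraries. Without Lgr5+ replicate 1 the fold was 5.90 (log2 fold change 2.52), and without Lgr5+ replicate 2 it was 1.25 (0.29).

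The upstream of the 2 promoter windows of Cdkn1a (RefSeq, GRCm38.p6, chr17:29090729-29091028, plus strand) is shown because Cdkn1a is the textbook target of p53. Capitals mark a match to the p53 consensus, 2 abutting stretches of 10 bases, with at most 1 mismatch, searched on both strands.
Cdkn1a upstream promoter: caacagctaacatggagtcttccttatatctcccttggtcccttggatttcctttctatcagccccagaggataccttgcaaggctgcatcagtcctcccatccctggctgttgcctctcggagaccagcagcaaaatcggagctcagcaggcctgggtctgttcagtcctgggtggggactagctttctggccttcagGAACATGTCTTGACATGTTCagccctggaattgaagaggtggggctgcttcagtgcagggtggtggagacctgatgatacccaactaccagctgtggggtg
The match begins 51 bases before the upstream start. Of all windows, 29 (0.0883%) held such a match, and among the 9 windows found for 7 of the 10 genes it was the only one.

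Within the Cip/Kip family Cdkn1a made up 87.8% and 82.1% of the summed RPM in Reg4+ DCS cells and 53.3% and 29.7% in Lgr5+ cells. The share of Cdkn1c was 1.23% and 3.38% in Reg4+ DCS cells and 30.9% and 17.8% in Lgr5+ cells. Cdkn1b held 10.98% and 14.5% in Reg4+ DCS cells and 15.8% and 52.5% in Lgr5+ cells. The sum of the family overlapped between the populations, at 378 and 288 RPM in Reg4+ DCS cells, against 428 and 162 RPM in Lgr5+ cells. Cdkn1a over Cdkn1c was 71.3 and 24.3 in Reg4+ DCS cells and 1.72 and 1.67 in Lgr5+ cells, so the 2 Lgr5+ libraries, which differed more than 4-fold in each gene, were nearly alike in the ratio.

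**Figure D3:**
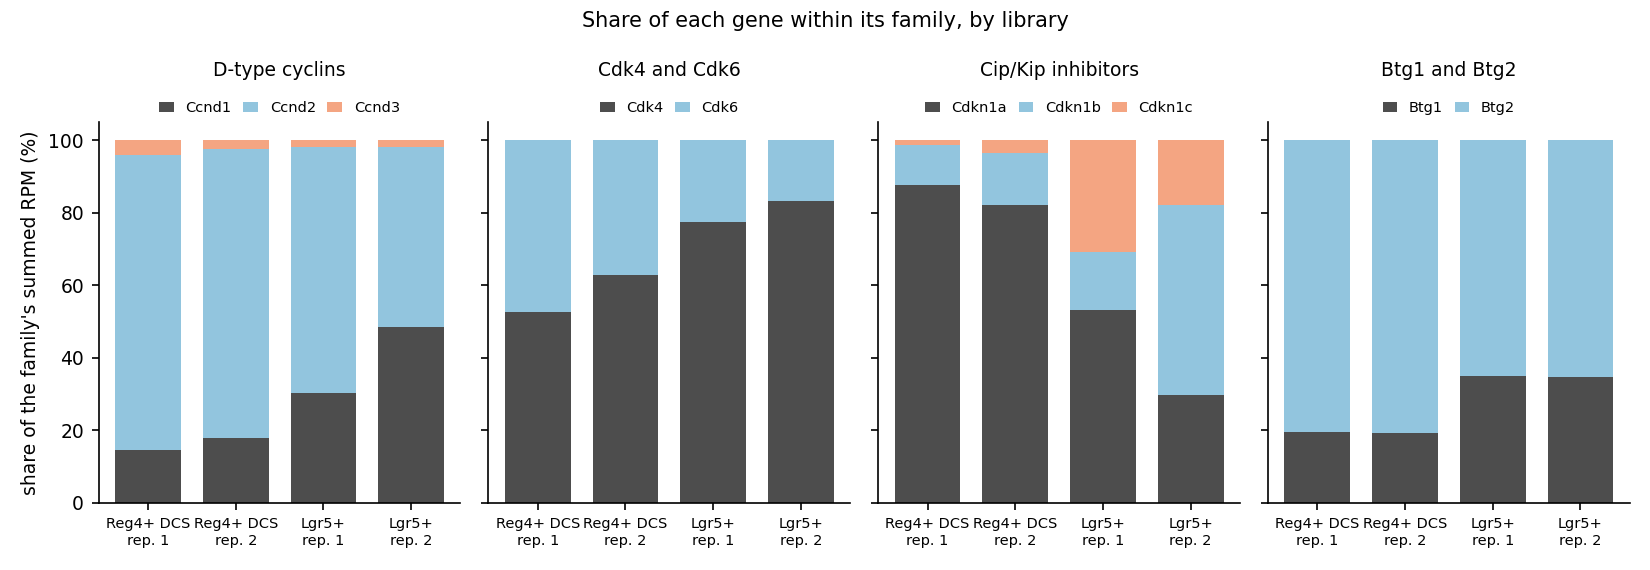
Share (%) of each gene in the summed RPM of its family, in Reg4+ DCS replicates 1 and 2 and then Lgr5+ replicates 1 and 2. Ccnd1, Cdk4 and Cdkn1c take larger shares in the Lgr5+ libraries, and Btg2 takes 80.4% and 80.7% in Reg4+ DCS cells and 65.0% and 65.2% in Lgr5+ cells.

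The 2 Lgr5+ libraries also differed in markers of other cell types. All 5 tuft cell markers (Dclk1, Trpm5, Pou2f3, Gfi1b and Avil) were detected in both Lgr5+ libraries, and their summed RPM was 2.30 and 1.98 in Reg4+ DCS cells, where Pou2f3 and Gfi1b were listed at 0, and 769 and 228 in Lgr5+ cells, 3.38-fold higher in Lgr5+ replicate 1 than in replicate 2. The 6 absorptive markers summed to 425 and 542 RPM in Reg4+ DCS cells, against 949 and 197 RPM in Lgr5+ cells, 4.82-fold higher in Lgr5+ replicate 1. Guca2a carried most of the sum in Reg4+ DCS cells (339 and 505 RPM, against 211 and 67.5 RPM in Lgr5+ cells), and the other 5 markers summed to 85.9 and 37 RPM in Reg4+ DCS cells, against 738 and 130 RPM in Lgr5+ cells. Of those 5, 4 had both Reg4+ DCS libraries under both Lgr5+ libraries, and Krt20 overlapped. The 6 goblet markers were 2.73-fold higher in Lgr5+ replicate 1 than in replicate 2. Enteroendocrine markers (5 of 5 in the table) summed to 25.2 and 33.9 RPM in Reg4+ DCS cells, against 66.1 and 46.3 RPM in Lgr5+ cells. Crypt base stem cell markers, at 24.9 and 43.9 RPM in Reg4+ DCS cells, against 454 and 533 RPM in Lgr5+ cells, were 0.851 times as high in Lgr5+ replicate 1 as in replicate 2. The part of these other cells in the levels of Cdkn1a and Cdkn1c was not tested.

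Leukocyte markers (6 of 8 in the table) summed to 1.61 and 1.52 RPM in Reg4+ DCS cells. There 5 of the 6 were listed at 0. In Lgr5+ cells the list summed to 57.2 and 53.05 RPM, of which Ptprc made 40.1 and 9.55 RPM and Cd74 13.4 and 40.5 RPM. Cd3e, Cd79a, Coro1a and Tyrobp stood at 0.126 to 1.54 RPM in Lgr5+ cells. Stromal markers (3 of 6 in the table) came to 0.264 and 0.614 RPM in Reg4+ DCS cells, with Col1a1 and Pecam1 listed at 0, and 5.19 and 4.40 RPM in Lgr5+ cells. The 3 tested genes nearest to Cdkn1c, by Euclidean distance of log2(RPM + 1) centred over the 4 libraries, were Slc9a9, a sodium and proton exchanger of endosomes (0.36), Mall, a membrane protein (0.41), and Map2, a microtubule-binding protein (0.60). Slc9a9 had 0.181 and 0.999 RPM in Reg4+ DCS cells, against 25.5 and 6.79 RPM in Lgr5+ cells.

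**Figure D4:**
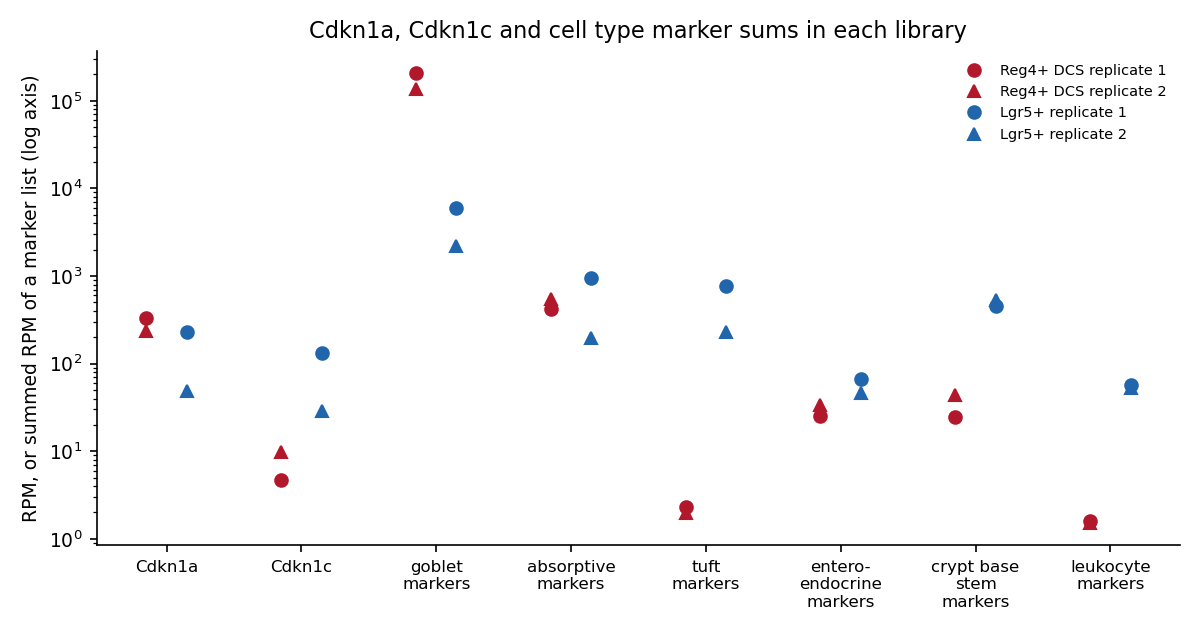
RPM (log axis) of Cdkn1a and Cdkn1c and summed RPM of the cell type marker lists, with Reg4+ DCS libraries in red on the left and Lgr5+ libraries in blue on the right of each pair. Circles are replicate 1 and triangles replicate 2. In Lgr5+ cells, replicate 1 lies above replicate 2 for both genes and for the tuft (769 and 228), absorptive (949 and 197) and goblet markers, and below it for the stem cell markers.

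Btg2 rose in Reg4+ DCS cells and was the most abundant of the 10 genes in that population. Btg2 (chromosome 1, 134075170 to 134079120, minus strand), an early response and p53-induced gene whose product slows entry into S phase, stood at 700 and 705 RPM in Reg4+ DCS cells, against 257 and 211 RPM in Lgr5+ cells. The Reg4+ DCS libraries were nearly equal, and both lay well above the Lgr5+ libraries. The parts of Reg4+ DCS replicate 1 were less alike, at 606 and 794 RPM. They were 1.31-fold apart, with a median gap of 1.30 over tested genes. In replicate 2 the parts of Btg2 could not be recovered. With means of 702 ± 3.70 RPM in Reg4+ DCS cells against 234 ± 32.3 RPM in Lgr5+ cells the fold was 3.002 (2.74 to 3.33 without 1 library, log2 fold change 1.59, SE 0.22, limma adjusted p = 0.00176). Btg2 was called higher under each alternative run, with log2 fold changes from 1.45 without Lgr5+ replicate 2 to 2.10 under median-of-ratios scaling. It was higher than at least 98.5% of the genes above 0 in each Reg4+ DCS library.

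The promoter window of Btg2 (RefSeq, GRCm38.p6, chr1:134079106-134079405, minus strand) is shown as that of the gene that was called higher on both scales. Capitals mark TGACGTCA, the element bound by factors of the CREB family, which reads the same on both strands.
Btg2 promoter: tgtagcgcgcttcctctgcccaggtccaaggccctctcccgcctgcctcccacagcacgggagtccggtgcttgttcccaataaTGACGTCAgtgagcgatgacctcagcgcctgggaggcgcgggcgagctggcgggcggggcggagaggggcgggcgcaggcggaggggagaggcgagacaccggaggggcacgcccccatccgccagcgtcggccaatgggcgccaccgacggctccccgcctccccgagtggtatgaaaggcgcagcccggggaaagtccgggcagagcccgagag
The single match begins 166 bases before the start. Of all windows 1.79% held at least 1, and the windows of the other genes found here held 0.

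Btg1 (chromosome 10, 96617006 to 96622809, plus strand), the close relative of Btg2 and a gene of resting cells, stood at 171 and 168 RPM in Reg4+ DCS cells, against 138.5 and 113 RPM in Lgr5+ cells. Its fold of 1.35 was not called (log2 fold change 0.44, SE 0.22, adjusted p = 0.158) and was called under median-of-ratios scaling (0.94, adjusted p = 0.0142). Btg2 over Btg1 was 4.09 and 4.19 in Reg4+ DCS cells and 1.85 and 1.87 in Lgr5+ cells, the ratio that varied least within a population among the 5 computed. The tested genes nearest to Btg2 in pattern were Wfs1, a membrane protein of the endoplasmic reticulum (distance 0.06), Hspa5, the chaperone BiP of that compartment (0.10), and Kctd14 (0.10). Hspa5 had 1131 and 1161 RPM in Reg4+ DCS cells, against 406 and 367 RPM in Lgr5+ cells.

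The genes around these 10 were followed in 6 lists, of which Cdkn2a, Btg3 and Btg4 were not analysed here. Their counts stand beside the 7.18% of all tested genes called higher, the 26.9% called lower and the median of −0.47. Without 1 library, fewer genes were called lower over all tested genes too. The filter also lets in genes that reach 5 RPM in Lgr5+ cells only. Of the genes called lower, Bub1, E2f6, E2f7, Lin9, Skp2 and Phlda3 passed it that way, so their entry and their direction are not independent. Of 20 S phase and mitosis genes tested, 18 were lower in Reg4+ DCS cells and 0 higher (0 higher also at an unadjusted p under 0.05 and by edgeR), with a median log2 fold change of −2.02. Plk1, a mitotic kinase, stood at 25.1 and 23.6 RPM in Reg4+ DCS cells, against 275 and 268 RPM in Lgr5+ cells (11.2-fold lower). Ccnb2, a mitotic cyclin, was 5.83-fold lower, Bub1, a spindle checkpoint kinase, 7.02-fold, and Ube2c, which tags mitotic cyclins for decay, 5.63-fold. Pcna, the sliding clamp of DNA synthesis (log2 fold change −0.49, adjusted p = 0.139), and Rrm2, a subunit of ribonucleotide reductase (−0.41, adjusted p = 0.379), did not pass. Pcna and Rrm2 lie outside the rule for naming genes and were chosen after their values were seen. Under median-of-ratios scaling, and also by edgeR, 17 of the 20 were lower.

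Of 10 tested partners of the G1 to S step, 4 were lower in Reg4+ DCS cells and 0 higher (0 at an unadjusted p under 0.05 and 0 by edgeR), with a median of −0.78. The lower calls by edgeR numbered 3. Ccna2, the cyclin of S phase, stood at 22.7 and 29.0 RPM in Reg4+ DCS cells, against 107 and 114 RPM in Lgr5+ cells (4.27-fold lower). Cks1b and Cks2, small subunits that bind cyclin-dependent kinases, were 3.03-fold and 2.59-fold lower. Ccne1, the cyclin that follows the D-type cyclins, was 2.34-fold lower (adjusted p = 0.021) but was not called once scaled by median of ratios (0.0902).

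Among the retinoblastoma and E2F genes, 8 of 16 tested were lower in Reg4+ DCS cells and 0 higher (0 at an unadjusted p under 0.05 and 0 by edgeR), with a median of −0.99. Only 4 were called lower by edgeR. E2f8, a repressor E2F, was 3.79-fold lower, Rbl1 (p107), a relative of the retinoblastoma protein, 3.47-fold, E2f6, another repressor, 3.06-fold, and E2f3, an activator, 2.95-fold. E2f8 stood at 5.45 and 9.99 RPM in Reg4+ DCS cells, against 21.1 and 37.5 RPM in Lgr5+ cells. The count of 8 was 4 under median-of-ratios scaling, 1 without Reg4+ DCS replicate 1, 5 without Reg4+ DCS replicate 2 and 3 without either Lgr5+ library. Tfdp1, the partner of E2F proteins, was listed at 0 for both Reg4+ DCS libraries, against 5.38 and 3.65 RPM in Lgr5+ cells, so that it failed the filter, and it too was chosen after its values were seen.

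Inhibitors of the INK4 family and ubiquitin ligase subunits gave 3 lower and 0 higher of 10 tested (0 higher at an unadjusted p under 0.05 and by edgeR), with a median of −0.56. The count and the median are near those of all tested genes, and edgeR called 1 lower. Skp2, the subunit that marks p27 for decay, stood at 1.35 and 2.35 RPM in Reg4+ DCS cells, against 7.68 and 7.67 RPM in Lgr5+ cells (4.14-fold lower). Fzr1 (2.17-fold) and Cul1 (1.80-fold), subunits of the ligases APC/C and SCF, were also lower, and scaling by median of ratios ended both calls (adjusted p = 0.0919 for Fzr1 and 0.262 for Cul1). Leaving out either Reg4+ DCS replicate 1 or Lgr5+ replicate 2, the count of lower genes was 0. The INK4 genes Cdkn2b, Cdkn2c and Cdkn2d were tested and not called (adjusted p = 0.279 for Cdkn2b, 0.0651 for Cdkn2c and 0.609 for Cdkn2d).

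Of 9 tested BTG/TOB relatives and CCR4-NOT subunits, 1 rose and 1 fell. Tob1, an antiproliferative relative of Btg2, stood at 189 and 258 RPM in Reg4+ DCS cells, against 124 and 90.1 RPM in Lgr5+ cells (2.09-fold higher, log2 fold change 1.06, SE 0.26, limma adjusted p = 0.0183). The call of Tob1 was lost without Reg4+ DCS replicate 2 and without Lgr5+ replicate 2. Cnot1, the scaffold of CCR4-NOT, was 1.74-fold lower (adjusted p = 0.0346) and was not called once scaled by median of ratios (adjusted p = 0.338), without a trend, without Reg4+ DCS replicate 1 or without either Lgr5+ library. The median of the list was −0.10.

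Of 14 other p53 target genes tested, 1 was higher and 4 were lower in Reg4+ DCS cells, with a median of −0.12, and both counts are near the shares over all tested genes. Trp53inp1, a p53-induced gene of cell cycle arrest and autophagy, stood at 52.9 and 90.5 RPM in Reg4+ DCS cells, against 9.99 and 10.8 RPM in Lgr5+ cells (6.89-fold higher). Gdf15, a secreted stress factor, was 6.84-fold lower, at 34.4 and 66.9 RPM in Reg4+ DCS cells, against 411 and 282 RPM in Lgr5+ cells. Phlda3, an inhibitor of Akt, was 5.19-fold lower at low values. It stood at 0.627 and 2.32 RPM in Reg4+ DCS cells, against 6.34 and 8.92 RPM in Lgr5+ cells. Bax, a pore-forming apoptosis protein, was 2.17-fold lower and Tnfrsf10b, a death receptor, 2.15-fold. Once scaled by median of ratios, limma called neither Bax (adjusted p = 0.108) nor Tnfrsf10b (0.217). Mdm2, the ubiquitin ligase of p53 and chosen after its values were seen, stood at 49.3 and 96.0 RPM in Reg4+ DCS cells, against 60.3 and 81.3 RPM in Lgr5+ cells, which overlap. The count of 4 lower genes fell to 1 once Reg4+ DCS replicate 1 was left out and to 2, with 2 higher, once values were scaled by median of ratios.

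**Figure D5:**
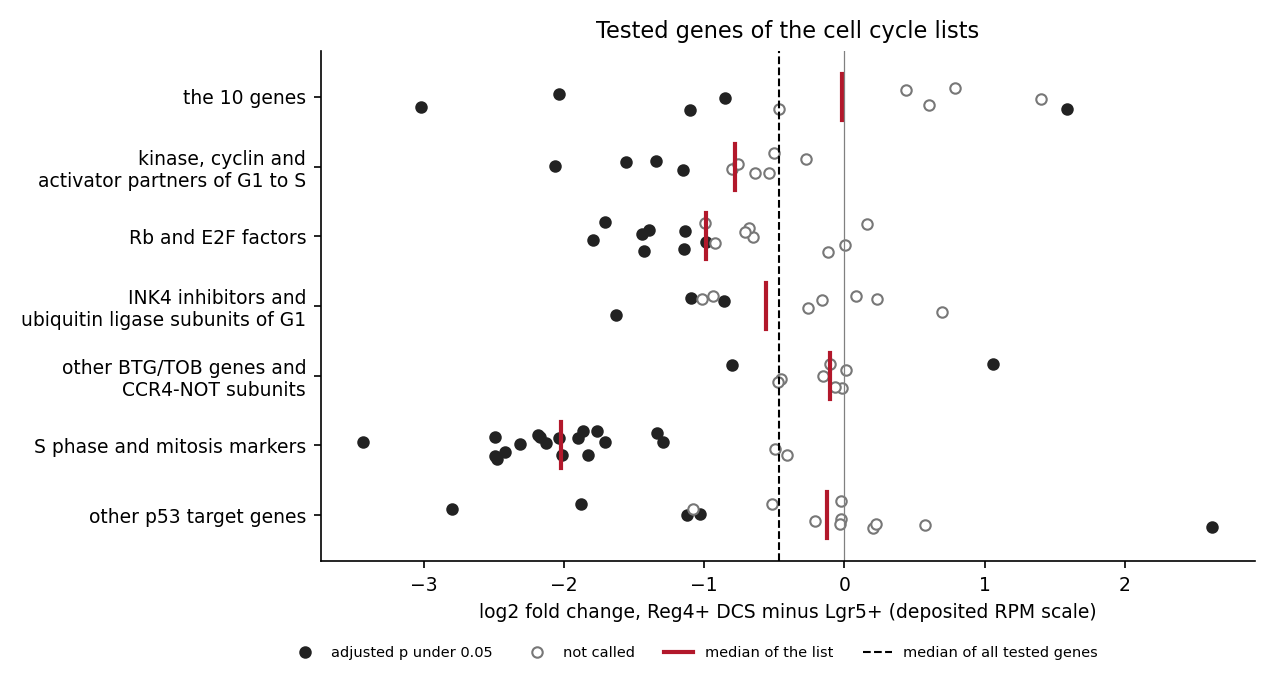
Log2 fold change (Reg4+ DCS minus Lgr5+, deposited RPM scale) of each tested gene of the 10 and of the 6 lists. Filled points have an adjusted p under 0.05, red bars are list medians, and the dashed line is the median of all tested genes (−0.47). The S phase and mitosis markers lie farthest to the lower side, with a median of −2.02, and the 10 genes lie on both sides.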

How the data were processed

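RNA of 4 libraries of sorted mouse colon cells was analysed, with groups and replicate numbers from the sample titles. The authors deposited 1 table of RPM values. BWA 0.6.2-r126 and the build mm10 are named in the submitters' processing notes. How genes were counted, with which annotation, molecular identifiers and strand setting, is not given in the sources at hand. The values of both Lgr5+ columns were whole multiples of 1 step for 100% of genes (within 0.01 reads), and those of the Reg4+ DCS columns were decoded as sums of 2 steps for 99.9% and 98.6% of genes. Genes left ambiguous, among them Btg2 in Reg4+ DCS replicate 2, were rounded from RPM for the count test. Recovered reads of a Reg4+ DCS library pool both parts (5523304 and 1890960 reads in replicate 1), so the deeper part weighs more. The deposited RPM weights both parts alike. The decoding and the fits were tested on simulated data.

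limma 3.58.1 in R 4.3.3 (eBayes with a trend) was run on log2(RPM + 1) for genes that reached 5 RPM in 2 or more libraries, with p-values adjusted by Benjamini-Hochberg over all tested genes. The alternatives were median-of-ratios scaling, pseudocounts of 0.5 and 5, no filter, no trend, a replicate block, each library left out, and edgeR 4.0.16 (quasi-likelihood, TMM) on recovered reads. The rule for named genes took the 10 genes, up to 4 called genes per list and direction with the largest change and libraries apart, and the 3 genes nearest to the members with the largest called rise and fall. The members, lists and tests were chosen with earlier results of these data known. Gene positions come from GENCODE M21 (GRCm38) and promoter windows from RefSeq (GRCm38.p6). The replicates are described as biological, but no label names the animals, so p-values measure the spread within 2 pairs of libraries.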

Additional observations from a re-analysis of the deposited data

How the results depend on the processing

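The pseudocounts of 0.5 and 5, the fit with no filter and limma without a trend changed no call of the 10 genes and left the counts over all genes, the 10 genes and the lists within 1.5 times, except that Cnot1 was not called without a trend. Over all genes, higher and lower calls numbered 731 and 2744, 1618 and 1243 under median-of-ratios scaling, 1393 and 1362 by edgeR, and 349 to 706 higher and 1060 to 2288 lower without 1 library. Of the 10 genes, 1 higher and 4 lower became 5 and 2 under median-of-ratios scaling and 4 and 2 by edgeR, 1 to 3 higher and 1 to 4 lower without 1 library. List genes, 2 higher and 38 lower, came to 1 to 2 and 20 to 36 without 1 library.

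Median-of-ratios scaling raises the values of Reg4+ DCS cells and lowers those of Lgr5+ cells, each library by 1 factor. On the log2 scale it gave −0.59 for Ccnd1 and −0.35 for Cdkn1b (calls lost), 1.12 for Ccnd2, 1.25 for Ccnd3, 1.91 for Cdkn1a and 0.94 for Btg1 (calls gained), and turned Cdk6 to 0.024. By edgeR Ccnd1 (−0.62) and Cdkn1b (−0.41) were not called, and Ccnd2 (1.20), Ccnd3 (1.51) and Btg1 (0.92) were, while Cdkn1a (1.61, adjusted p = 0.0971) was not. Without 1 library the log2 fold change ran from −1.38 to −0.81 for Ccnd1, 0.28 to 0.93 for Ccnd2, 0.29 to 2.52 for Cdkn1a, −1.01 to −0.68 for Cdkn1b and −4.10 to −1.94 for Cdkn1c. Leaving out a library makes 1 group a single library, assumed to vary like the other group. The cause of the calls lost or gained without 1 library was not tested.

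With the replicate number as a block, 3 of the 10 genes were called higher, Ccnd2 (0.61, adjusted p = 0.0392) and Cdkn1a (1.41, adjusted p = 0.000129) being gained. Over all 10183 tested genes that fit called 910 higher and 3534 lower. A block in 4 libraries leaves few degrees of freedom, so its limma p-values lean on the spread of other genes. Deviations of same-numbered libraries from their group means correlated at 0.21 over 10183 genes, and no label says that the number marks a shared round. Depth limits Cdkn1c in Reg4+ DCS cells (36 and 53 reads) and Ccnd3 (42 to 137 reads) most.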
